A study of Homo sapiens with 4 samples.

Results

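The genes of homologous recombination, of the Fanconi pathway and of the signalling that goes with them were examined in human Nalm-6 pre-B cells that lack a subunit of the INO80 chromatin remodeling complex. The 37 members were chosen by name, and their probes were found through the transcript accession of each probe. All 37 had at least 1 probe well above background on all 4 arrays, among 12969 genes measured in this way. They are read by 49 probes, of which 29 members have 1, 4 have 2 and 4 have 3.

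Homologous recombination repairs a broken chromosome by copying an intact sister. The broken end is first trimmed to a single strand, mediators then prepare that strand for pairing, and motor proteins help it to invade the sister. The Fanconi pathway detects crosslinks that stop a replication fork, attaches ubiquitin to a pair of proteins and hands the lesion over to nucleases and recombination, while the kinases ATM and ATR signal the damage. Many of these genes are most active in dividing cells, and lymphoid precursors divide fast and also break their own DNA when they assemble antigen receptor genes.

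Total RNA of untreated cells was labelled with Cy3 and hybridized to single-color Agilent arrays, with 1 array per genotype. The Arp8 KO and Arp5 KO lines had the locus for the named actin-related protein disrupted by gene targeting, and wild-type cells (WT) were their control. The fourth genotype is Arp8 overexpression, described as made in Arp8 knockout cells with a tetracycline-regulated (Tet-Off) construct. Each genotype is represented by a single array and a single line, so no difference has a replicate check and no p-value is given. All 4 arrays lay on 1 slide and were scanned on 1 day, and their number limits the precision.

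Values are processed signals in scanner units, and differences are on the log2 scale after each array was set to its own 75th percentile, which was 1980.5 units in WT, 1949.96 in Arp5 KO, 2004 in Arp8 KO and 2012 on the array labelled Arp8 overexpression. Of the spots other than controls, 31188 were well above background in WT, 31420 in Arp5 KO, 30394 in Arp8 KO and 30803 on the array labelled Arp8 overexpression. Probes printed more than once gave a technical error for a log2 difference, with a median SD of 0.06 for 37 probes between 50 and 500 units and of 0.03 for 145 probes over 500 units. For 82 probes under 50 units it was 0.43. This error is that of spots on an array and holds no variation between cultures. With an error of this size the spots of a repeated probe can separate between arrays at a small difference. How many of all repeated probes did so was not counted.

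The first check was on the targeted genes. *ACTR5*, which encodes Arp5, had a signal of 1909 units in WT, 65.3 in Arp5 KO, 1849 in Arp8 KO and 2088 on the array labelled Arp8 overexpression. Its level was thus low on the Arp5 KO array alone. *ACTR8*, which encodes Arp8, is read by a pair of probes, of which the first gave 1092 units in WT, 993 in Arp5 KO, 785 in Arp8 KO and 679 on the array labelled Arp8 overexpression. Its other probe gave 2149, 2233, 1654 and 1857 units in the same order. The array labelled Arp8 overexpression therefore showed no higher *ACTR8* signal than WT with either probe, and it is named by its label throughout. The parts of the transcript that these probes read, inside or outside the disrupted or introduced sequence, were not examined, so *ACTR8* does not check the Arp8 labels.

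The cells were also set against lineage markers. Of 12 pre-B cell genes, 11 were well above background on every array and *CD24* has no named probe, and *IGLL1*, a surrogate light chain, was the brightest on every array. Their summed signal was 363967 units in WT, 372956 in Arp5 KO, 365732 in Arp8 KO and 387518 on the array labelled Arp8 overexpression. Single genes moved more than this sum. Their log2 differences from WT ran from -0.56 to 0.49 in Arp5 KO, -0.61 to 0.37 in Arp8 KO and -0.49 to 0.55 on the array labelled Arp8 overexpression. Within 1.3-fold of WT were 9 of the 11 in each KO line and 5 on the array labelled Arp8 overexpression, beside 81.6%, 77.4% and 78.3% of all genes. Of 5 T cell genes 3 were well above background, with a summed signal of 1471 units in WT, 1125 in Arp5 KO, 607 in Arp8 KO and 1122 on the array labelled Arp8 overexpression, most of it from the kinase gene *LCK*, while *CD3D* and *CD28* were not well above background on any array. The 5 myeloid genes summed to 233, 217, 362 and 337 units in the same order, with *CD14* the brightest in WT and Arp5 KO and *LYZ* on both Arp8 arrays, and *MPO* was not well above background on any. Erythroid genes summed to between 26.1 and 30.4 units, with *ALAS2* the brightest and *HBB* not well above background on any array. Epithelial and fibroblast genes summed to between 14.7 and 18.9 units, with *KRT19* the brightest and *EPCAM* not well above background. The part that any of these markers has in the results below was not tested.

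In Arp5 KO cells 35 of the 37 members were within 1.3-fold of WT, beside 81.6% of all genes. The number was 28 on each of the Arp8 arrays (75.7%), near the 77.4% and 78.3% of all genes in Arp8 KO and in the labelled Arp8 overexpression. The median log2 difference of the members was -0.00 in Arp5 KO, -0.15 in Arp8 KO and -0.12 on the array labelled Arp8 overexpression, beside 0.02, 0.03 and 0.03 over all genes. The spread from the lowest to the highest array had a median of 0.38 over the members and 0.36 over all genes. These comparisons share the WT array, and a shift of that array would appear in each of them.

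In Arp5 KO cells 19 members were lower than WT, beside 46.3% of all genes. Beyond 1.5-fold, 1 member was lower (3.32% of all genes) and none was higher (3.99%), and no member was beyond 2-fold in either direction (1.95%). At 1.3-fold, 1 member was lower (8.55%) and 1 was higher (9.81%). These shares are near or below those of all genes.

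In Arp8 KO cells 29 of the 37 members were lower than WT, beside 45.9% of all genes. The shift was small for most of them, as 9 were lower beyond 1.3-fold (11.1% of all genes), 2 beyond 1.5-fold (5.10%), and 1 was beyond 2-fold (2.88% in either direction). None was higher beyond 1.3-fold (11.5%) or 1.5-fold (5.12%). The 9 were *FANCC*, *XRCC3*, *RAD54B*, *BARD1*, *XRCC2*, *DNA2*, *FANCD2*, *H2AX* and *BRIP1*.

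On the array labelled Arp8 overexpression 24 members were lower than WT, beside 45.2% of all genes. Of these, 7 were lower beyond 1.3-fold (10.3% of all genes), 2 beyond 1.5-fold (4.90%) and 1 beyond 2-fold (3.03% in either direction), and 2 were higher beyond 1.3-fold (11.4%) and none beyond 1.5-fold (5.14%). The 2 members beyond 1.5-fold were *FANCC* and *XRCC3* on both Arp8 arrays.

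Set against the array labelled Arp8 overexpression, 21 members were lower in Arp8 KO cells, beside 50.1% of all genes. Beyond 1.3-fold 5 were lower (8.58%) and 2 were higher (8.41%). Beyond 1.5-fold 1 was lower (3.65%) and none higher (2.98%), and none was beyond 2-fold (1.51%). The median of the members was -0.04. The array with the lowest signal was Arp8 KO for 16 members and the array labelled Arp8 overexpression for 15, while WT and Arp5 KO were lowest for 3 each. Among all genes the lowest array was Arp8 KO for 23.1%, the array labelled Arp8 overexpression for 22.5%, WT for 31.9% and Arp5 KO for 22.5%.

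**Figure D1:**
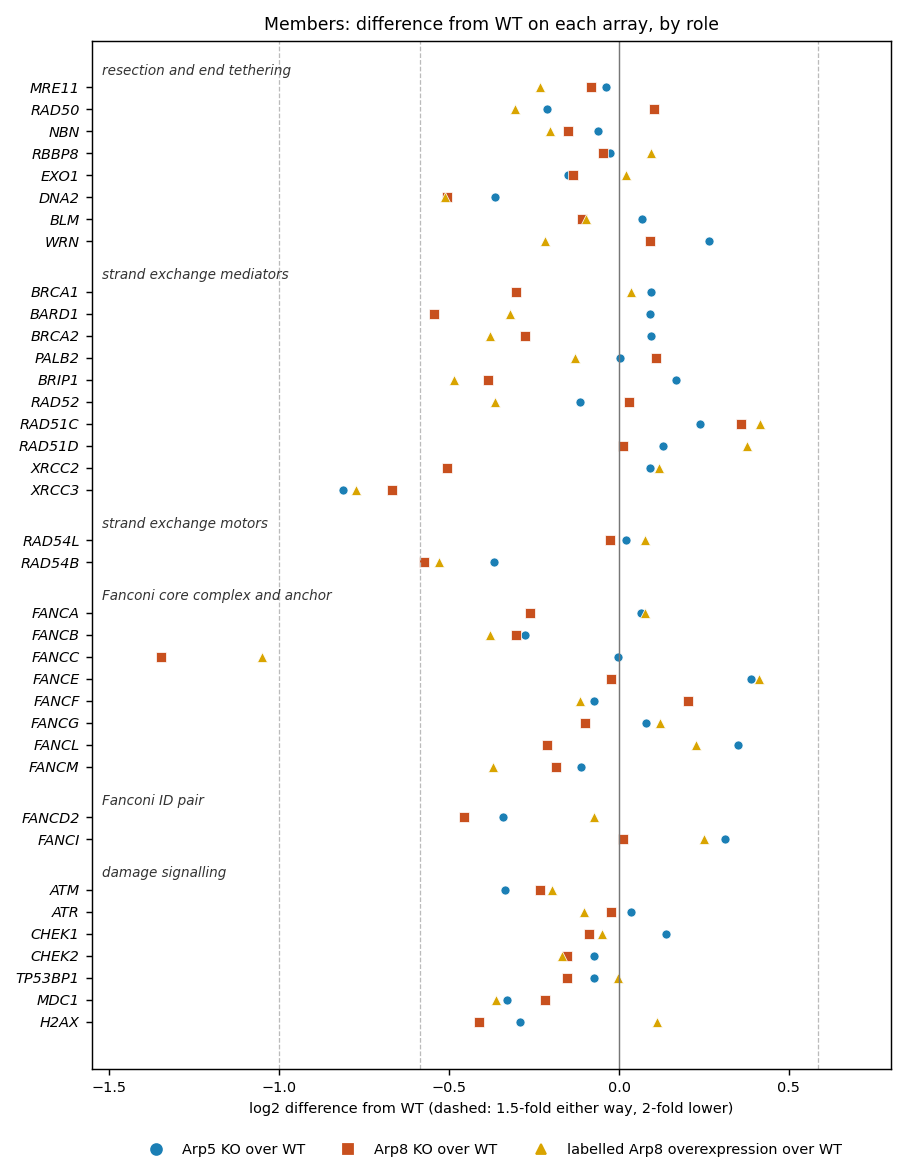
Log2 difference from WT (x axis) of each of the 37 members (rows, by role) for Arp5 KO (circles), Arp8 KO (squares) and the array labelled Arp8 overexpression (triangles), 1 array each. *FANCC* stood at -1.35 and -1.05 on the Arp8 arrays and at -0.00 in Arp5 KO. *XRCC3* was the only member left of the 1.5-fold line in all 3 comparisons, which share the WT array.

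Resection and end tethering is carried out by 8 members. Their median log2 difference from WT was -0.05 in Arp5 KO, -0.10 in Arp8 KO and -0.21 on the array labelled Arp8 overexpression, and none was beyond 1.5-fold. *DNA2*, a nuclease and helicase that lengthens the trimmed end, had 1346 units in WT, 1029 in Arp5 KO, 959 in Arp8 KO and 959.6 on the array labelled Arp8 overexpression. It was lower than WT on each of the other arrays, with differences of -0.37, -0.51 and -0.51, and the Arp8 arrays gave nearly the same signal. *RAD50*, the long coiled-coil subunit that tethers the ends together with MRE11 and NBN, is read by a probe printed 10 times, with 2123 ± 63.9 units in WT, 1713 ± 40.6 in Arp5 KO, 2189 ± 64.2 in Arp8 KO and 1699.95 ± 52.3 on the array labelled Arp8 overexpression (SD, n = 10 spots of 1 array). After scaling, its spots in WT and Arp8 KO overlapped, and those of the remaining arrays lay below both. Its second probe, with 1 spot, had the same order of these pairs, at 332 and 379.9 units against 297 and 280.4, and the gene's difference of Arp8 KO from the array labelled Arp8 overexpression was 0.41. *WRN*, a helicase of the RecQ family, moved between other arrays, with 3921 ± 161 units in WT, 4639 ± 189 in Arp5 KO, 4231 ± 177 in Arp8 KO and 3425 ± 118 on the array labelled Arp8 overexpression. *EXO1*, an exonuclease, had differences of -0.15, -0.14 and 0.02. The ranges of its scaled spots overlapped between WT and each of the other arrays, but spot by spot all 10 were lower than WT in both KO lines, with an SD of the differences of 0.02 in each. The rest of the group, *MRE11*, *NBN*, *RBBP8* and *BLM*, lay between -0.23 and 0.09 in the comparisons with WT. The probes of *MRE11* differed in direction in both KO lines, with -0.12 and 0.04 in Arp5 KO and -0.26 and 0.09 in Arp8 KO.

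Among the mediators of strand exchange is *XRCC3*, which had the largest difference outside the Fanconi core in each comparison with WT. Of the 10 mediators 2 were lower than WT in Arp5 KO and 6 in Arp8 KO, with medians of 0.09 and -0.29. The array labelled Arp8 overexpression had 6 lower and a median of -0.23. Among all genes 46.3%, 45.9% and 45.2% were lower in these comparisons. *XRCC3*, a mediator that works in a complex with RAD51C, had 307 units in WT, 172 in Arp5 KO, 195 in Arp8 KO and 182 on the array labelled Arp8 overexpression. WT was the high array and the others lay close together, at log2 differences of -0.81, -0.67 and -0.78. It was the only member beyond 1.5-fold in the same direction in both KO lines. How many of all genes meet this joint rule was not counted, and all these differences share the same WT spot. The probe has 1 spot, and with an alternative that joined normexp background correction, the median signal and quantile normalization the differences on the Arp8 arrays were -0.40 and -0.44, short of 1.5-fold.

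*XRCC2*, a mediator that works with RAD51D, had 127 units in WT, 134 in Arp5 KO, 90.7 in Arp8 KO and 140.4 on the array labelled Arp8 overexpression. Here the Arp8 KO array alone was low, by -0.51 against WT and -0.62 against the array labelled Arp8 overexpression, the only difference of a member beyond 1.5-fold between the Arp8 arrays. With the alternative that joined normexp and quantile normalization these were -0.17 and -0.33, within 1.3-fold. The promoters of both genes are shown because these mediators had different patterns over the arrays, as the 250 bases before the RefSeq start (GRCh38.p14, minus strand, chr14:103715452-103715701 for *XRCC3* and chr7:152676142-152676391 for *XRCC2*), with capitals for any match to the motifs searched.
XRCC3: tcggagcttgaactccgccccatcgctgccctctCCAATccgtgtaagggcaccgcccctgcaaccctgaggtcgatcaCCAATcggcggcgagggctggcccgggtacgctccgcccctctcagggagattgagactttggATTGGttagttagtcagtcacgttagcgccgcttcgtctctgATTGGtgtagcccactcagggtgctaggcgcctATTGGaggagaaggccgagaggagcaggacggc
XRCC2: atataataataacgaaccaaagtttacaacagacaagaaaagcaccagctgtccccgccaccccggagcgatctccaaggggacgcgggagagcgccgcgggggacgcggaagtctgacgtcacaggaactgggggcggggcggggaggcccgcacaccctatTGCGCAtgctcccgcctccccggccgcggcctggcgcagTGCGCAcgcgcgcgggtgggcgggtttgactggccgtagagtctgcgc
The capitals in *XRCC3* are 5 matches to CCAAT, on either strand, and those in *XRCC2* are 2 matches to TGCGCA, the core of the NRF1 motif. Of all genes with a promoter sequence 37.0% had CCAAT and 8.28% had TGCGCA. Any link between these matches and the signals was not tested.

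*BRCA1*, which promotes resection and strand exchange, gave 7287 ± 382 units in WT, 7656 ± 396 in Arp5 KO, 5975 ± 339 in Arp8 KO and 7593 ± 383 on the array labelled Arp8 overexpression (SD, n = 10 spots). All scaled spots of the Arp8 KO array lay below those of the other arrays, while the ranges of the remaining arrays overlapped WT. Spot by spot, all 10 in Arp5 KO were nonetheless above WT. The log2 differences from WT were 0.09, -0.30 and 0.04. *BARD1*, its partner in a ubiquitin ligase, had 8248 units in WT, 8652 in Arp5 KO, 5726 in Arp8 KO and 6705 on the array labelled Arp8 overexpression. It was lower on both Arp8 arrays, by -0.54 and -0.32, and stood at 0.09 in Arp5 KO.

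*BRCA2*, a mediator that acts on the trimmed strand, gave 291 ± 6.58 units in WT, 306 ± 8.89 in Arp5 KO, 243 ± 9.97 in Arp8 KO and 227 ± 10.7 on the array labelled Arp8 overexpression (SD, n = 10 spots). Its scaled spots on the Arp8 arrays overlapped each other and lay below those of WT, and those of Arp5 KO lay above WT by 0.09. *BRIP1*, a helicase that binds BRCA1, followed the same order, with 425 units in WT, 470.4 in Arp5 KO, 329 in Arp8 KO and 308 on the array labelled Arp8 overexpression. Its differences from WT were 0.17, -0.39 and -0.49.

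*RAD51C*, which works in complexes with XRCC3 and with XRCC2, was higher on each of the other arrays than in WT, with 11658 units in WT, 13545 in Arp5 KO, 15120 in Arp8 KO and 15787 on the array labelled Arp8 overexpression, and differences of 0.24, 0.36 and 0.41. *RAD51D*, the partner of XRCC2, also had gene values above WT on each of them, but its probes differed. Its value on the array labelled Arp8 overexpression was 0.38 over WT, while its 3 probes gave -0.18, -0.09 and 0.68, with a median of -0.09. *RAD52*, an annealing factor, stood at -0.12, 0.03 and -0.37, and *PALB2*, which joins BRCA1 to BRCA2, at 0.00, 0.11 and -0.13.

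Among the motor proteins, *RAD54B*, a translocase of the SWI2/SNF2 family, gave 1516 ± 66.6 units in WT, 1156 ± 51.1 in Arp5 KO, 1031 ± 49.2 in Arp8 KO and 1067 ± 57.6 on the array labelled Arp8 overexpression (SD, n = 10 spots). All scaled spots of the other arrays lay below those of WT, while the Arp8 arrays overlapped each other. The log2 differences of -0.37, -0.57 and -0.53 were many times the SD of its spot differences, which was between 0.03 and 0.05. All were short of 1.5-fold, but with the authors' table the Arp8 KO difference was -0.60, beyond it. Its relative *RAD54L* had differences of 0.02, -0.03 and 0.08.

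**Figure D2:**
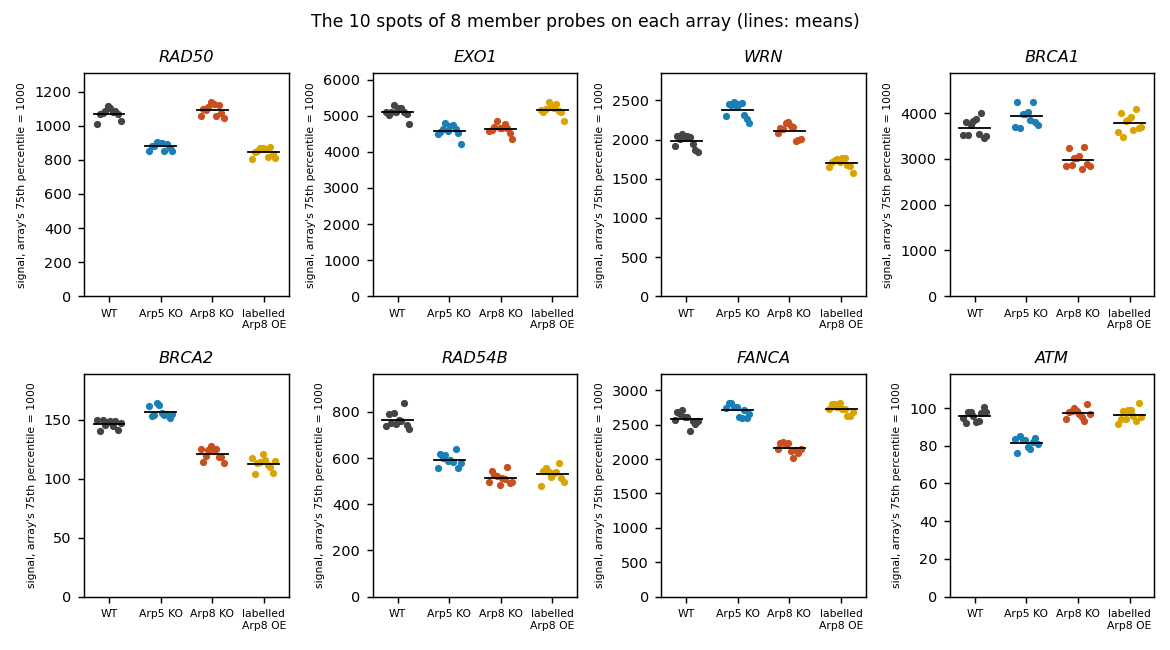
Signals (y axis, scaled so that each array's 75th percentile is 1000) of the 10 spots of 8 member probes on the 4 arrays, with lines at the means. The spots of *RAD54B* in WT lie above those of the other arrays, and those of *BRCA1* and *FANCA* in Arp8 KO lie below those of the other arrays. How many of all repeated probes separate in this way was not counted.

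The Fanconi core complex, a ubiquitin ligase, and FANCM, which anchors it to chromatin, make up 8 members. Their medians were 0.03 in Arp5 KO, -0.20 in Arp8 KO and -0.02 on the array labelled Arp8 overexpression. *FANCC*, a subunit of the core, had 4369 units in WT, 4289 in Arp5 KO, 1736 in Arp8 KO and 2143 on the array labelled Arp8 overexpression. WT and Arp5 KO gave almost the same signal, and both Arp8 arrays lay below them, at -1.35 and -1.05. It was the only member beyond 2-fold in any comparison with WT, and its difference of Arp5 KO from Arp8 KO was 1.34.

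The genes beside *FANCC* on chromosome 9 were lower on the same arrays. For each member up to 10 measured genes on either side were taken from the gene order of GRCh38.p14, a look added after the values of *FANCC* had been seen, with 15 neighbours in all for *RAD52*, 16 for *FANCA* and 20 for each of the others. The 20 neighbours of *FANCC* had a median of -0.12 in Arp5 KO, -1.07 in Arp8 KO and -1.04 on the array labelled Arp8 overexpression, and 17 of the 20 in Arp8 KO, and 16 of the 20 on the array labelled Arp8 overexpression were lower beyond 1.5-fold. With that median subtracted, *FANCC* stood at -0.28 and -0.01 on the Arp8 arrays. The neighbours of the other 36 members had medians between -0.17 and 0.19 in Arp8 KO and between -0.12 and 0.21 on the array labelled Arp8 overexpression. For *XRCC3* they were 0.08, 0.15 and 0.19 in the order Arp5 KO, Arp8 KO and labelled Arp8 overexpression, and with them subtracted *XRCC3* stood at -0.89, -0.82 and -0.97.

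The low values around *FANCC* ended between neighbouring genes. Going outward, *IPPK* was the last low gene on one side, with -0.73 in Arp8 KO, and the next measured gene, *CENPP*, had 0.37. On the other side *INIP*, which encodes a partner of a single-strand binding protein, had -1.03, and the next measured gene, *SLC31A2*, had 0.20. These bounds were set after the values were seen. Of the 82 measured genes from *IPPK* to *INIP*, 61 in Arp8 KO and 59 on the array labelled Arp8 overexpression were lower than WT beyond 1.5-fold, and 2 were in Arp5 KO. Their medians were -0.90, -0.91 and -0.02 in that order. Among the 46 genes of the stretch with a mean signal of at least 500 units, the medians were -0.94 in Arp8 KO and -0.95 on the other Arp8 array.

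The 20 measured genes before the stretch had a median of 0.15 in Arp8 KO and the 20 after it 0.09, and the remaining 425 measured genes of chromosome 9 had 0.05. Other repair genes lay inside it, named after their values were seen, with Arp8 KO differences of -0.72 for *XPA* and -0.91 for *RAD23B*, both of nucleotide excision repair, and -1.23 for the helicase gene *ERCC6L2*. Within it the Arp8 KO array and the array labelled Arp8 overexpression differed by a median of 0.00. Since the labelled Arp8 overexpression cells are described as made in Arp8 knockout cells, the loss of Arp8 and a property of that line cannot be told apart here. Genomic DNA was not analysed here, and why these neighbours were low together was not tested.

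**Figure D3:**
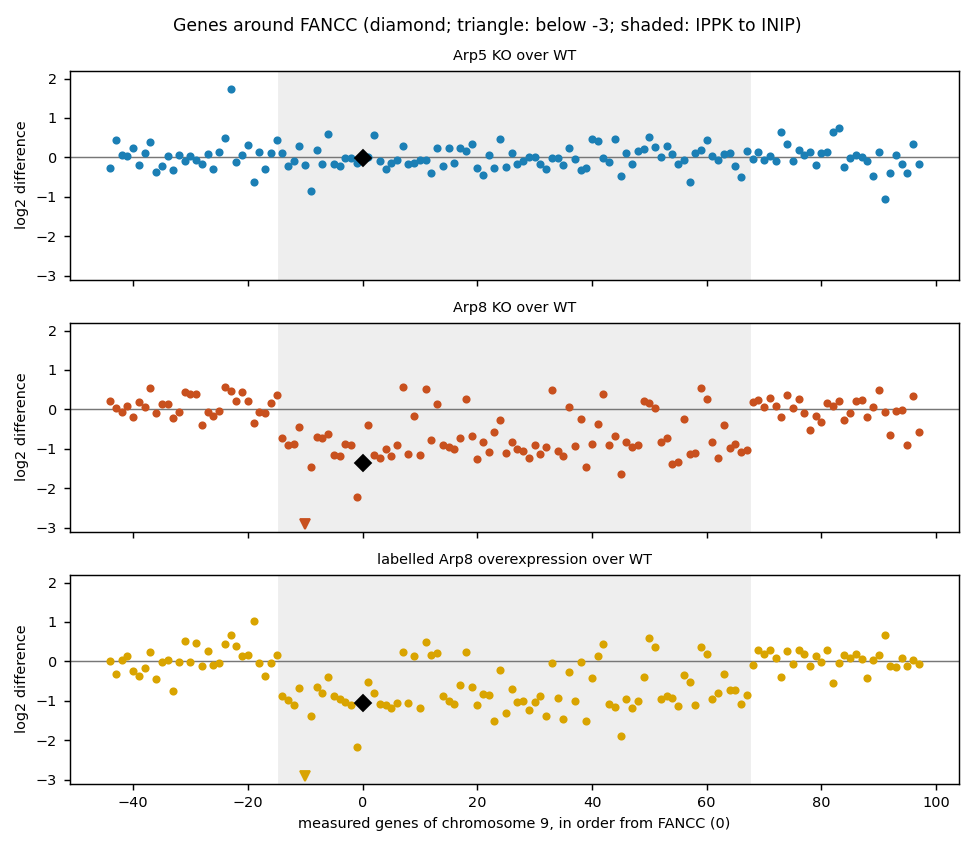
Log2 difference from WT (y axis) of the measured genes of chromosome 9 in gene order from *FANCC* (x axis, *FANCC* at 0, black diamond), for Arp5 KO, Arp8 KO and the array labelled Arp8 overexpression. Genes from *IPPK* to *INIP* (shaded) had medians of -0.90 and -0.91 on the Arp8 arrays and -0.02 in Arp5 KO, and triangles at the lower edge mark *FGD3*, at -7.04 and -5.69.

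The promoter of *FANCC* is shown because it is the member with the largest difference, again as the 250 bases before 1 of its 2 RefSeq starts (GRCh38.p14, minus strand, chr9:95317710-95317959).
FANCC: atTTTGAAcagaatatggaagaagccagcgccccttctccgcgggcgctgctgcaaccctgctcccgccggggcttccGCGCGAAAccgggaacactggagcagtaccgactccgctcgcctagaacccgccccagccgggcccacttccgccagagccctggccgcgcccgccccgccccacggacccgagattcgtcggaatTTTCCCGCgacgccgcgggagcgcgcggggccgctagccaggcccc
The capitals are 2 matches to the E2F motif (TTTCGCGC and TTTCCCGC) and 1 to TTTGAA, the core of the cell cycle homology region.

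The remaining core members moved less. *FANCE*, which joins the core to its substrates, had 21979 units in WT, 28329.8 in Arp5 KO, 21889.9 in Arp8 KO and 29696 on the array labelled Arp8 overexpression, so the high signals were those of Arp5 KO, at 0.39, and of the array labelled Arp8 overexpression, at 0.41, and Arp8 KO stood at -0.02. *FANCL*, the catalytic subunit, had 3296 units in WT, 4139 in Arp5 KO, 2881 in Arp8 KO and 3915 on the array labelled Arp8 overexpression, with differences of 0.35, -0.21 and 0.23. Arp8 KO was its lowest array and the only one below WT. *FANCA*, printed 10 times, gave 5122 ± 179 units in WT, 5278 ± 169.8 in Arp5 KO, 4323 ± 152 in Arp8 KO and 5489.6 ± 136 on the array labelled Arp8 overexpression (SD, n = 10 spots). Its scaled spots in Arp8 KO lay below those of every other array, at -0.26 against WT. *FANCB*, *FANCF*, *FANCG* and *FANCM* lay between -0.38 and 0.20 in the comparisons with WT. The direction of *FANCM* in Arp5 KO depends on the probe, with -0.11, which sets the gene value, 0.22 and 0.07.

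**Figure D4:**
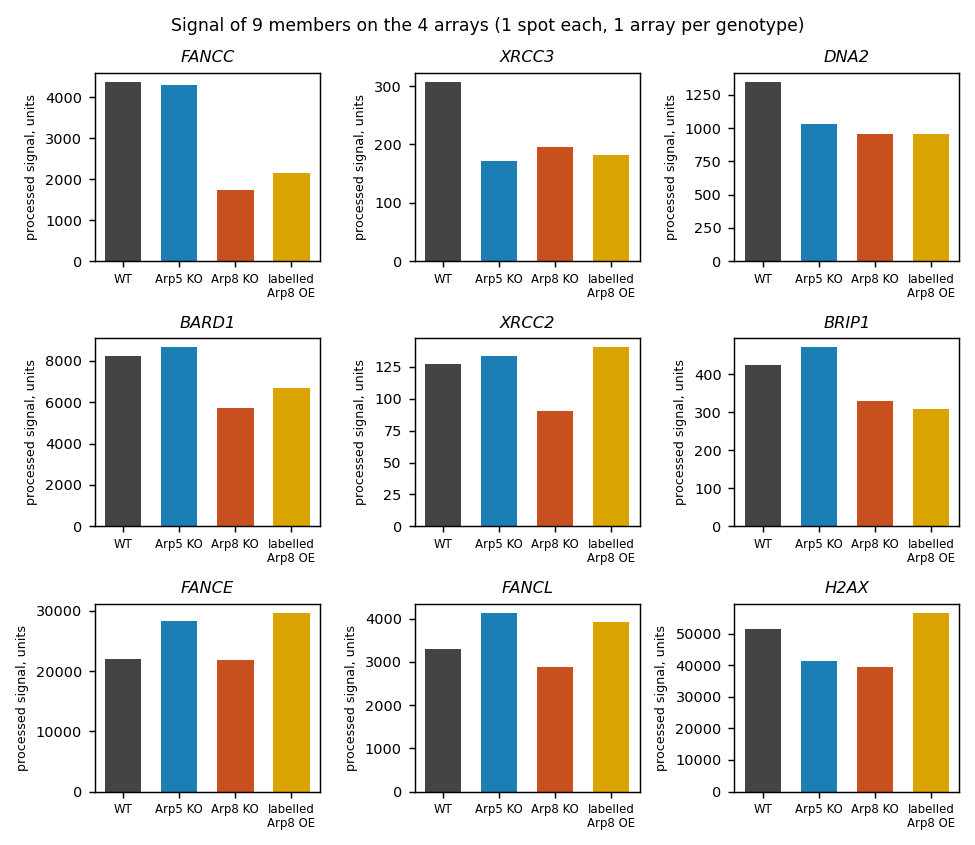
Processed signal (y axis, scanner units from 0) of 9 members with 1 probe and 1 spot on the 4 arrays. *FANCC* was 4369 and 4289 units in WT and Arp5 KO against 1736 and 2143 on the Arp8 arrays, *XRCC3* was highest in WT, and *XRCC2* was lowest in Arp8 KO.

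The Fanconi ID pair, FANCD2 and FANCI, receives ubiquitin from the core. *FANCD2* is read by 3 probes, and the one that sets the gene value gave 2992 units in WT, 2327 in Arp5 KO, 2207 in Arp8 KO and 2888 on the array labelled Arp8 overexpression, with differences of -0.34, -0.46 and -0.07. Its other probes gave -0.04, -0.11 and -0.24, and -0.02, -0.19 and 0.09, so that the sign in the KO lines was the same with each probe while the size was not. *FANCD2* has pseudogene copies, and which probes read them was not examined. *FANCI* had gene values of 0.31, 0.01 and 0.25, all from 1 of its 3 probes. In the same order of arrays, another probe gave 0.08, 0.19 and 0.15 and the last 0.02, -0.39 and -0.09.

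The 7 genes of damage signalling were all lower than WT in Arp8 KO, with a median of -0.15 and a range from -0.41 to -0.02, and 5 were lower in Arp5 KO, beside 45.9% and 46.3% of all genes. Of these, *ATM* was lower in Arp8 KO with only 1 of its probes. None was beyond 1.5-fold against WT on any array. *H2AX*, the histone variant phosphorylated around a break, had 51622 units in WT, 41502 in Arp5 KO, 39300.3 in Arp8 KO and 56694 on the array labelled Arp8 overexpression. Both KO arrays were low, at -0.29 and -0.41, and the array labelled Arp8 overexpression was at 0.11. *ATM*, the kinase activated by breaks, is read by a probe printed 10 times, which gave 190.2 ± 5.63 units in WT, 159 ± 5.45 in Arp5 KO, 195.0 ± 5.47 in Arp8 KO and 194 ± 6.82 on the array labelled Arp8 overexpression (SD, n = 10 spots). Its scaled spots in Arp5 KO lay below those of every other array, and the remaining arrays overlapped. A dimmer single spot gave 59.3, 43.3, 42.9 and 45.7 units in the same order, low on all arrays but WT. In Arp8 KO the difference from WT was thus 0.02 with the repeated probe and -0.48 with the single spot, and the gene value of -0.23 rests on the latter.

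*ATR*, the kinase activated by single-stranded DNA, had 5997 units in WT, 6046 in Arp5 KO, 5976 in Arp8 KO and 5671 on the array labelled Arp8 overexpression, within -0.10 and 0.03 of WT. *CHEK1* and *CHEK2*, the kinases that ATR and ATM act on, lay between -0.17 and 0.14. Whether the single probe of *CHEK2* also reads pseudogenes was not examined. *TP53BP1*, which restrains resection, lay between -0.15 and -0.00. *MDC1*, an adaptor that binds the marked histone, stood at -0.33, -0.22 and -0.36.

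Between the KO lines themselves, 3 members were higher in Arp5 KO than in Arp8 KO beyond 1.5-fold (4.65% of all genes) and none was lower (3.96%). They were *FANCC* at 1.34, *BARD1* at 0.64 and *XRCC2* at 0.60. The call of *XRCC2* was lost under 4 of 13 alternatives, at 0.50 with quantile normalization, 0.56 with no scaling, 0.58 with the authors' table and 0.31 with normexp and quantile normalization, and that of *FANCC* with its neighbours subtracted, at 0.42. *BARD1* stayed beyond 1.5-fold under all 13. *BRIP1* and *FANCL* followed at 0.56 each, and *BRCA1* and *BRCA2* stood at 0.40 and 0.37. *XRCC3* and *DNA2* were at -0.14 and 0.14.

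Further genes of the same pathways were taken from a list of 49, of which 47 were measured and *FAAP20* and *CENPS* have no named probe. Their medians were -0.06 in Arp5 KO, -0.06 in Arp8 KO and 0.03 on the array labelled Arp8 overexpression. Beyond 1.5-fold 2 were lower in Arp5 KO (3.32% of all genes) and 5 in Arp8 KO (5.10%), and none was higher in either (3.99% and 5.12%). *HUS1*, a clamp that activates ATR, had 734 units in WT, 405 in Arp5 KO, 455 in Arp8 KO and 753 on the array labelled Arp8 overexpression, and so was low in both KO lines at -0.83 and -0.71. The meiotic recombination gene *DMC1* and *RAD51B* had -0.81 and -0.49 in Arp5 KO and -0.40 and -0.09 in Arp8 KO. *RMI2*, a partner of BLM, and *MCM9*, a helicase of recombination, had -0.88 and -0.72 in Arp8 KO and -0.36 and -0.12 in Arp5 KO.

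Lists of cell cycle, end-joining and p53 target genes were set beside the members because recombination genes follow the cell cycle. The 23 S-phase genes had medians of 0.03 in Arp5 KO, -0.08 in Arp8 KO and 0.11 on the array labelled Arp8 overexpression, with *MCM2*, a subunit of the replicative helicase, at -1.93, -1.37 and -0.10. Other S-phase genes with large differences were *MCM4*, at -0.75 in Arp5 KO and 0.09 in Arp8 KO, *CCNE2*, at -0.53 and -0.03, and *RRM2*, at -0.50 and -0.47. The 19 measured genes of G2 and mitosis had -0.11, -0.20 and 0.02, led by the checkpoint kinase genes *BUB1B*, at -0.49 and -0.71 in the KO lines, and *TTK*, at -0.46 and -0.56, with *BUB1* at -0.41 and -0.51 and *KIF11* at -0.34 and -0.54. Against the array labelled Arp8 overexpression, 22 of the 23 S-phase genes were lower in Arp8 KO, with a median of -0.25, and all 19 of G2 and mitosis, with a median of -0.20, beside 50.1% of all genes. The part of the cell cycle in the members' values was not tested.

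The 12 end-joining genes had medians of -0.01, -0.04 and 0.07. *LIG4*, the ligase of that pathway, stood at -0.35 in Arp5 KO and -0.68 in Arp8 KO, *APLF* at 0.47 and 0.72, and *PRKDC* at -0.33 and -0.59. The 18 p53 target genes had medians of -0.04 in Arp5 KO, 0.70 in Arp8 KO and 0.25 on the array labelled Arp8 overexpression, and 11 were higher beyond 1.5-fold in Arp8 KO (5.12% of all genes). Among them *PHLDA3*, *BBC3* and *TNFRSF10B* had 1.83, 1.70 and 1.36 in Arp8 KO and -0.21, 0.23 and -0.07 in Arp5 KO. *PLK3*, *FAS* and *CDKN1A* had 0.71, -0.59 and -0.42 in Arp5 KO and 0.91, 0.71 and 1.17 in Arp8 KO. In Arp8 KO the median of the members was thus nearer to 0 than that of the p53 targets, and whether these values are related was not tested.

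**Figure D5:**
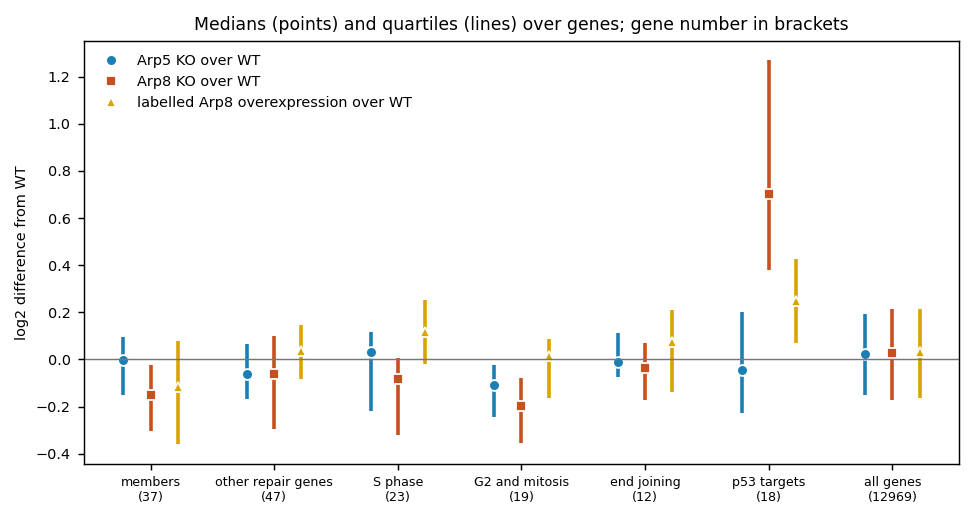
Median (points) and quartiles (lines) of the log2 difference from WT (y axis) over the members, 5 other gene lists and all genes measured, for Arp5 KO (circles), Arp8 KO (squares) and the array labelled Arp8 overexpression (triangles). Member medians were -0.00, -0.15 and -0.12, and the p53 targets reached 0.70 in Arp8 KO.

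Promoter sequences of RefSeq (GRCh38.p14) matched 32 of the 37 members, with none for *RAD54B*, *NBN*, *WRN*, *DNA2* and *FANCI*. In the 250 bases before any listed start, on either strand, CCAAT was found for 16 of the 32 members and for 37.0% of all genes in the table, and CCGGAAG, an ETS motif, for 10 and 10.2%. TGCGCA was found for 7 members and 8.28% of all genes, TTTGAA for 5 and 16.1%, and 1 of the E2F motifs TTTCCCGC, TTTGGCGC, TTTCGCGC and TTTGCCGC for 2 members, *FANCA* and *FANCC*, and 3.40%. Among single promoters of the table the shares were 32.0% for CCAAT, 8.52% for CCGGAAG, 6.89% for TGCGCA, 13.3% for TTTGAA and 2.79% for E2F. The printed matches do not overlap one another. Matches are to these letters alone and show no binding, and any link between them and the signals was not tested.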

How the data were processed

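The authors deposited the scanner output of each array, made with Agilent Feature Extraction 10.5.1.1 per the file headers, which name the build hg18. The processed signal is an intensity, background-subtracted and detrended within the array. A table of intensity values was deposited as well, whose values were the processed signal times 1 factor per array, between 0.807 and 0.847, and the labels do not state the rule for that factor. Other columns used hold marks for outliers and for spots well above background, which the authors deposited with the signal.

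From these, log2 processed signals minus the array's 75th percentile over non-control spots were computed. Outlier spots were left out and spots of a probe averaged. A probe was well above background where over 50% of its spots were. A gene's value is the median over its probes well above background on all 4 arrays. No spot was saturated. Of 41000 probes 26222 (64.0%) were named by accession through the RefSeq gene table of GRCh38.p14, used for names and gene order. Differences beyond 1.3-fold, 1.5-fold and 2-fold were counted.

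Members and lists were chosen with earlier results of these data known. Members named in full are the 5 with the largest absolute difference in each comparison with WT and between the Arp8 arrays, those beyond 2-fold, those beyond 1.5-fold alike in both KO lines, *BRCA1*, *BRCA2*, *ATM*, *ATR* and *FANCD2*, and any whose probes differed by over 1, which none did. Further members given by name, *RAD51D* included, were chosen after their values were seen. From each pathway list the genes named are among the 3 with the largest difference in each KO line, and not all of these are given.

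The planned normexp alternative used the median signal because the scanner columns analysed held no mean signal, its offset was 50 units, and quantile normalization followed (R 4.3.3, limma 3.58.1). Other steps ran in Python 3.11.15, using pandas 2.3.3 and numpy 2.4.6. Alternatives covered the scaling, the authors' table, dim probes, outlier spots, the joining of probes and the fold threshold. The gene step was tested on simulated data.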

Additional observations from a re-analysis of the deposited data

Results flagged for a closer look

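2 members lay on opposite sides of WT in the KO lines, each by more than a bound of 3 median technical SDs for their brightness. That SD is of spots on an array and holds no variation between cultures. How many of all genes meet this rule was not counted. Over all genes the quartiles of the difference from WT were -0.15 and 0.19 in Arp5 KO and -0.17 and 0.22 in Arp8 KO. *BRIP1* passed narrowly, and with the 95th percentile of the SD, 0.10 between 50 and 500 units, it would not pass. *BRIP1* was 0.17 above WT in Arp5 KO and at -0.39 in Arp8 KO, a difference of 0.56 (0.5557) between the lines. Its Arp5 KO value of 0.1688 stood against a bound of 0.1686, and under 4 of 13 alternatives it was below that bound, at 0.15 with no scaling and with the percentile of probes well above background on all 4 arrays, 0.13 with the authors' table and 0.10 with normexp and quantile normalization. *FANCL* was 0.35 above WT in Arp5 KO and at -0.21 in Arp8 KO, a difference of 0.56 (0.5624), and stayed beyond its bound under all 13. Each line is a single array, both comparisons share the WT array, and the difference between the lines was not tested.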

How the results depend on the processing

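No paired analysis was possible because there is only 1 array per genotype. Of 15 alternatives, 12 were planned and 3 were added after seeing the data. In the comparisons with WT and between the Arp8 arrays, 7 differences of 19 named genes were beyond 1.5-fold. Among them is the targeted gene *ACTR5* in Arp5 KO, between -4.93 and -3.99 under the alternatives and so far from the threshold, and the rest are of members. All 7 kept their sign in all 90 values under the alternatives and stayed beyond 1.5-fold in 85. The exceptions were *XRCC3* on both Arp8 arrays and *XRCC2* between them with normexp on the median signal and quantile normalization together, and *FANCC* on both Arp8 arrays with its neighbours subtracted. Alternatives for the 3 members beyond 1.5-fold between the KO lines were run after seeing the data.

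With a threshold of 1.3-fold the members beyond it numbered 2 in Arp5 KO, 9 in Arp8 KO, 9 on the array labelled Arp8 overexpression and 7 between the Arp8 arrays, against 1, 2, 2 and 1 at 1.5-fold. With normexp and quantile normalization the counts at 1.5-fold were 1 in Arp8 KO, 1 on the array labelled Arp8 overexpression and 0 between them. Without *FANCC*, 1 member was beyond 1.5-fold and 0 beyond 2-fold on each Arp8 array, since it was the only one beyond 2-fold. With the neighbours subtracted, 0 were beyond 2-fold on each Arp8 array, 1 was beyond 1.5-fold on the array labelled Arp8 overexpression, and 3 were in Arp8 KO (*DNA2*, *XRCC3* and *FANCD2*). That alternative gave medians of -0.0436 in Arp5 KO, -0.19 in Arp8 KO, -0.16 on the array labelled Arp8 overexpression and -0.0946 between the Arp8 arrays. The authors' table gave medians of -0.0427 in Arp5 KO and -0.16 on the array labelled Arp8 overexpression, normexp with quantile normalization -0.16 there, and the percentile over probes well above background -0.15 there and -0.003 between the Arp8 arrays. In Arp8 KO, 3 members were beyond 1.5-fold with the authors' table, *RAD54B* among them. The cause of these shifts was not tested. The median in Arp8 KO lay between -0.19 and -0.14 under all alternatives. The dimmest member probe had 42.9 units, and dim probes have the larger technical error.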
